A study of Mus musculus with 2 samples.

Results

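Mitochondrial ribosomal protein genes were taken from the deposited count table as the symbols that begin with Mrpl or Mrps followed by a number, with the chromosome tag after each symbol removed. The rule found 75 genes among 29383 symbols, 46 named for the large subunit (Mrpl) and 29 named for the small subunit (Mrps). The study compared 2 pools of RNA, each from the apex of 8 mouse hearts at stage E12.5. The heterozygote, Nkx2-5cre, Ezh2f/+, carries 1 floxed copy of Ezh2, the methyltransferase of Polycomb repressive complex 2, and the mutant, Nkx2-5cre, Ezh2f/f, carries 2 floxed copies. Both pools share the Nkx2-5 Cre driver, which recombines in cardiac progenitors and their descendants, and both carry at least 1 floxed copy of Ezh2, so that no library without Cre or without a floxed allele enters the comparison. There was 1 library per genotype, made from total RNA, so the spread between embryos was not measured and no difference between the genotypes has a replicate check.

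The mitochondrial ribosome translates the small set of messenger RNAs encoded in mitochondrial DNA, all of which code for subunits of the respiratory chain and the ATP synthase. Its ribosomal RNAs are transcribed in the organelle, whereas its proteins are encoded in the nucleus, made in the cytosol and imported. Part of these proteins descend from bacterial ribosomal proteins, and the others were added in the mitochondrial lineage. The heart depends on this machinery, and recessive variants in several of its genes cause cardiomyopathy in infants.

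Promoter sequences of these genes are shown because nuclear genes for mitochondrial translation are known for sites of NRF1 (nuclear respiratory factor 1) and of ETS factors such as GABP. For 66 of the 75 genes RefSeq promoters (GRCm38.p6) were matched by symbol, from 250 bases before to 50 bases after the start, and letters were searched on both strands. The NRF1 letters (GCGCA, any base, GCGC) were found in 12 of the 66 windows (18.2%), in 5.19% of 27025 gene promoters of the same length and in 11.4% of the promoters of genes that were expressed here. The ETS letters CCGGAAG were found in 24 windows (36.4%, against 9.93% and 19.0%), and the YY1 letters ATGGCGG in 13 (19.7%, against 4.69% and 9.17%). At least 1 of these 3 was found in 40 of the 66 windows (60.6%, against 17.3% and 33.7%). Other searches gave shares below those of all promoters. CCAAT was found in 39.4% of the members' windows, against 41.1% of all promoters and 43.0% of those of expressed genes. The E-box CACGTG was found in 7.58%, against 8.09% and 11.9%, and TATAAA in 7.58%, against 15.7% and 8.91%.

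The 130 bases before the start of 5 genes are printed 5′ to 3′ on the strand of the gene, with matches to the NRF1 or ETS letters, on either strand, in capitals. Mrpl45 (chr11:97315586-97315715, plus strand) is shown for its pair of NRF1 matches, which begin at -120 and -38 from the start. Mrps21 (chr3:95871515-95871644, minus strand) and Mrpl12 (chr11:120484507-120484636, plus strand) are shown as genes with an NRF1 match that were among the 3 highest per length of their subunit. Mrpl3 (chr9:105053138-105053267, plus strand) and Mrps22 (chr9:98601680-98601809, minus strand) are shown as genes of inherited cardiomyopathy with an ETS match, at -19 and -11. Mrpl45 has another NRF1 match that begins 16 bases after the start and is not in the printed stretch.
Mrpl45: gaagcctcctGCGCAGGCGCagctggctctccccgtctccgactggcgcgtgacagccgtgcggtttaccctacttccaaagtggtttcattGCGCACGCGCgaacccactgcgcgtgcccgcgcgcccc
Mrps21: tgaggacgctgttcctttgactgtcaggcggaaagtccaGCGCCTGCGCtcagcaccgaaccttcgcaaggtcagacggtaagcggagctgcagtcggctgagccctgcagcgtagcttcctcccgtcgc
Mrpl12: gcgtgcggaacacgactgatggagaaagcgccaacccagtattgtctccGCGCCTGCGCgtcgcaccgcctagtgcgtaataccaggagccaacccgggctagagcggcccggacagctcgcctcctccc
Mrpl3: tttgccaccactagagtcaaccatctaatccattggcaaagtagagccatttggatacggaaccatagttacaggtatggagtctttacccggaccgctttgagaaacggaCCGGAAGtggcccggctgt
Mrps22: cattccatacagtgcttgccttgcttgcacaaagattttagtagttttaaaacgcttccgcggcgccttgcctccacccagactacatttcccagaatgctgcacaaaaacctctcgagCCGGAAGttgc
Within the searched windows, 13 of 15 NRF1 matches and 25 of 28 ETS matches began within 100 bases of the start. Of the YY1 matches, 12 of 13 lay after the start. Match positions were not counted over all promoters, and the windows themselves lie around the start. Whether these positions set the members apart was therefore not tested. A match is a description of the letters and not a measured binding site.

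The heterozygote library held 13944617 reads and the mutant library 14122579. Ezh2 itself had 493 heterozygote and 319 mutant reads, 36.4 and 21.9 CPM (scaled counts per 1000000 reads). Its ratio of heterozygote over mutant was 1.66 (1.44 to 1.92); the counts cover the whole gene, and the floxed exons were not counted apart. Levels are given here as reads and as CPM scaled between libraries by a trimmed mean of log ratios (TMM). A ratio is mutant over heterozygote scaled counts with an exact conditional Poisson 95% interval, and such intervals, like the Wilson intervals of shares, cover counting error only. Log2 ratios were taken after adding 1 CPM to both levels, mutant over heterozygote. The labels describe cardiomyocytes, and all 10 cardiomyocyte markers were present (summed level 55928 CPM against 54783 in the mutant), and markers of other cells were present too. They summed to 752 and 710 CPM for endothelium, 176 and 184 for epicardium, 947 and 934 for fibroblasts and mesenchyme, 3106 and 2250 for erythroid cells and 36.0 and 28.0 for leukocytes, with no tested marker at 0. Below a log2 ratio of 0 were 6 of 10 cardiomyocyte, 5 of 6 endothelial, 3 of 4 erythroid and 3 of 5 leukocyte markers. So were 2 of 5 in each of the epicardial and fibroblast lists, beside 51.2% of all genes. The summed ratio was 0.944 (0.918 to 0.970) for endothelial, 0.724 (0.714 to 0.735) for erythroid and 0.777 (0.679 to 0.888) for leukocyte markers. It was 0.980 (0.976 to 0.983) for cardiomyocyte, 1.04 (0.988 to 1.10) for epicardial and 0.987 (0.963 to 1.01) for fibroblast markers. Hbb-y had 39007 of the 42013 heterozygote erythroid reads, and the leukocyte marker Cd68 was higher in the mutant (40 and 69 reads). The sums that were lower in the mutant move in the same direction as the results on mitochondrial ribosomal proteins, and their part in them was not tested. In tissue RNA, fewer cells of a type and less RNA per cell cannot be told apart.

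All 75 genes had at least 1 CPM. Reads per gene ran from 193 to 3427, with medians of 679 for the heterozygote and 610 for the mutant. Per kilobase of the longest annotated transcript the mean level of the 2 libraries had a median of 31.3 CPM per kb, and the quartiles were 19.4 and 48.1. These quartiles differed 2.47-fold. The highest was Mrpl52, a mitochondria-specific protein of the central protuberance, at 497 CPM per kb, followed by Mrps21 at 247, Mrpl12 at 183 and Mrpl54 at 180. Lowest was Mrps26 at 3.65 CPM per kb. Annotated transcripts with long untranslated parts lower such values, and by coding length the median was 73.8 CPM per kb, with Mrpl1 lowest at 20.6 and Mrpl52 again highest at 633.

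**Figure D1:**
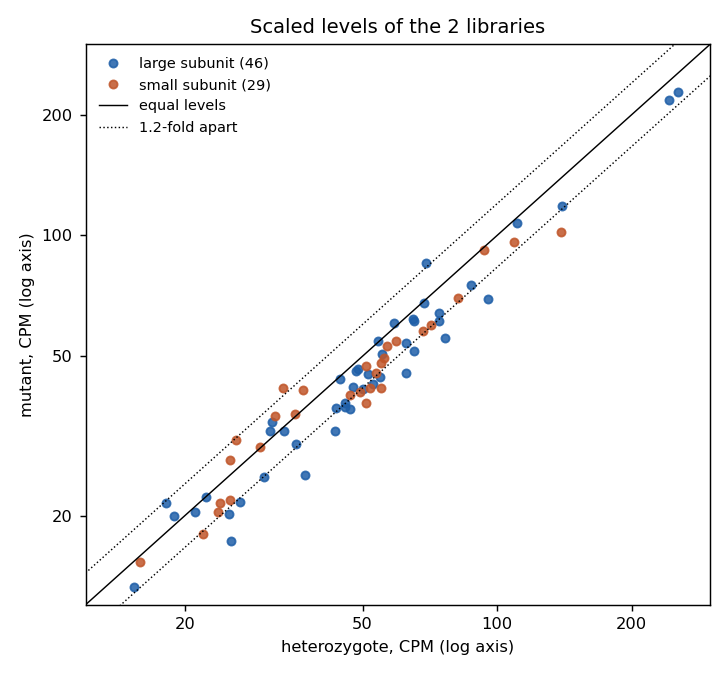
Scaled level of each mitochondrial ribosomal protein gene in the heterozygote (x axis, CPM, log scale) and in the mutant (y axis, CPM, log scale), 1 point per gene, with the line of equal levels and dotted lines at a plain ratio of 1.2. The 46 large subunit and 29 small subunit genes mix along the same diagonal, and most points lie below it.

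As a group the genes of both subunits were modestly lower in the mutant library. They summed to 57535 reads in the heterozygote, 0.413% of the library (Wilson 95% interval 0.409 to 0.416), and to 54956 in the mutant, 0.389% (0.386 to 0.392). In scaled counts the sum had a ratio of 0.888 (0.877 to 0.898), with 0.886 (0.873 to 0.899) for the large and 0.891 (0.873 to 0.909) for the small subunit. The median log2 ratio was -0.20 for the large subunit and -0.18 for the small subunit, beside -0.01 over the 16185 genes with at least 1 CPM in the higher library. Both subunits thus had nearly the same ratio in these libraries.

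The lower level was spread over many genes, each by a small amount. The log2 ratio was below 0 in 61 of the 75 genes (81.3%), against 51.2% of all genes: 39 of 46 in the large and 22 of 29 in the small subunit. At least 1.2-fold lower on the log2 scale were 21 genes (28.0%, against 15.2% of all genes), 15 of the large and 6 of the small subunit. At least 1.2-fold higher were 2 genes (2.67%, against 16.7%), 1 in each subunit. No member was 2-fold apart, and few of all genes were (0.778%), so this count does not set the members apart. Counts at 1.2-fold in the smaller lists below stand beside the same 15.2% lower and 16.7% higher of all genes. The counting interval of the ratio lay below 1 for 41 members (background 19.1%) and above 1 for 4 (background 17.4%), and held 1 for the other 30. Scaled by total counts in place of TMM, 9 genes were 1.2-fold lower (9.56% of all genes) and 4 higher (23.9% of all genes). Each of these values rests on a single pair of libraries.

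**Figure D2:**
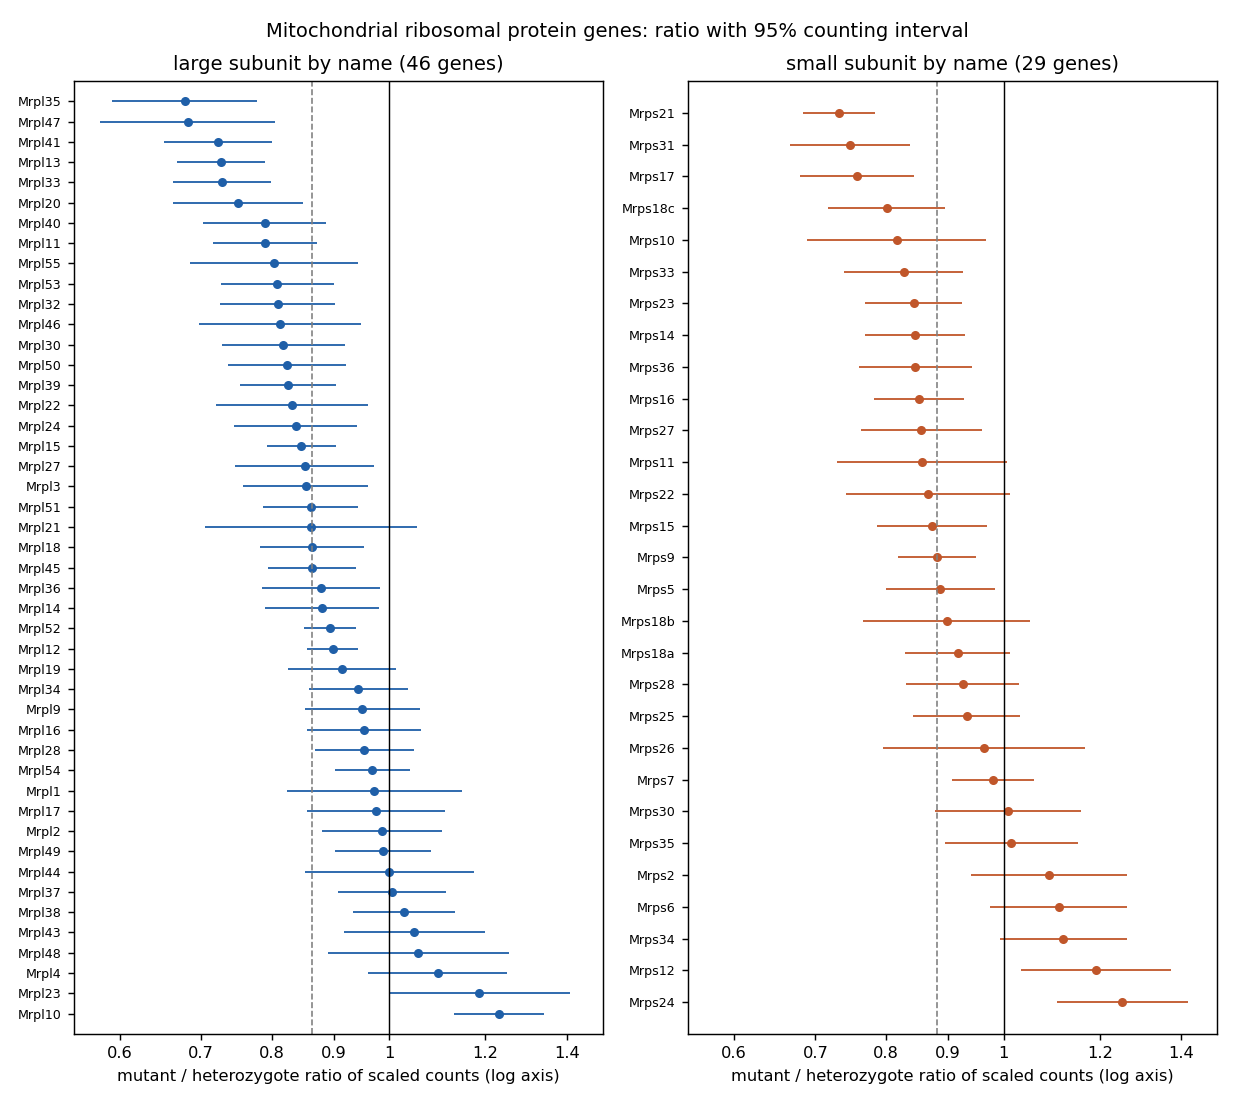
Mutant to heterozygote ratio of scaled counts (log axis) of each gene, large subunit at left and small subunit at right, sorted by ratio; points are ratios, bars are exact Poisson 95% counting intervals, the solid line marks 1 and the dashed line the median of the subunit. Intervals lie wholly below 1 for 27 of 46 large and 14 of 29 small subunit genes, and Mrps24, Mrpl10, Mrps12 and Mrpl23 have intervals above 1.

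In the large subunit the 6 lowest ratios were those of 5 homologs of bacterial proteins and of the mitochondria-specific Mrpl41. Mrpl35, a homolog of a bacterial large subunit protein, had 504 heterozygote and 368 mutant reads, a ratio of 0.678 (0.592 to 0.778). Mrpl47, the homolog of bacterial L29 at the exit of the peptide tunnel, had 343 and 252 reads, a ratio of 0.683 (0.578 to 0.806). Both intervals end below the ratio of the summed subunit, 0.886, but make no allowance for the picking of the lowest genes. In the deposited coordinates, whose genome build is not named, Mrpl35 lies at chr6:71765102-71773771 and Mrpl47 at chr3:32626461-32635697. Next came Mrpl41 with 847 and 659 reads (log2 ratio -0.46). Mrpl13, the homolog of bacterial L13, had 1293 and 1011 reads (-0.46). For Mrpl33, homolog of bacterial L33, the counts were 1034 and 810 reads (-0.45). These 3 genes had counting intervals that overlapped each other and that of Mrpl35. Mrpl20, homolog of bacterial L20, completed the 6 lowest with 587 and 474 reads (-0.40).

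At the other end, Mrpl10 was the 1 large subunit gene past 1.2-fold higher, with 937 heterozygote and 1241 mutant reads, a ratio of 1.23 (1.13 to 1.34). It lies at chr11:96902900-96910527 in the deposited coordinates. Mrpl23, the homolog of bacterial L23 at the tunnel exit, had 246 and 314 reads, and its interval of 1.001 to 1.41 barely excludes 1. The next 4 were Mrpl4 (log2 ratio 0.13), Mrpl48 (0.08), Mrpl43 (0.07) and Mrpl38 (0.04), and the intervals of these 4 genes hold 1.

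Within the stalk of the large subunit, where translation factors dock, values ranged from lower to higher. Mrpl12, the homolog of bacterial L7/L12 that recruits elongation factors, had the most reads of all members, with 3427 for the heterozygote and 3313 for the mutant (ratio 0.898, 0.856 to 0.942). Mrpl10 anchors Mrpl12 to the ribosome, and its interval of 1.13 to 1.34 does not overlap that of Mrpl12. Mrpl11, at the base of the stalk, had 882 and 750 reads (ratio 0.790, 0.716 to 0.872). Of the mitochondria-specific proteins near the stalk, Mrpl53 had 740 and 644 reads (log2 ratio -0.30) and Mrpl54 had 1496 and 1559 (-0.05). Mrpl53 shares its place with the gene model of Ccdc142 on the same strand, and their reads may not be separate. Thus 4 of the 5 stalk genes were below 0, 2 of them past 1.2-fold lower and 1 past 1.2-fold higher, with a median of -0.15. Of all genes 15.2% were that much lower and 16.7% higher.

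Around the tunnel through which the new protein leaves, 5 of 6 genes were below 0 (median -0.23). Only Mrpl47 was past 1.2-fold lower, 16.7% of the 6, near the 15.2% of all genes. Mrpl45, which holds the ribosome at the inner membrane and whose promoter is printed above, had 1181 heterozygote and 1098 mutant reads (log2 ratio -0.21). In the central protuberance, which contacts the small subunit and the tRNAs, 6 of 8 genes were below 0 (median -0.22) and 3 were past 1.2-fold lower (37.5%). Mrpl52, highest in level per length, had 3286 and 3158 reads there (-0.16).

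The small subunit had its lowest ratio in the gene with its highest level per length. Mrps21, homolog of bacterial S21, had 1884 heterozygote and 1485 mutant reads, a ratio of 0.732 (0.684 to 0.784). It lies at chr3:95666575-95675407 in the deposited coordinates. Mrps31, a mitochondria-specific protein, had 690 and 555 reads (log2 ratio -0.41). Mrps17, homolog of bacterial S17, had 742 and 605 (-0.39). The interval of Mrps21 ends below the ratio of the summed small subunit, 0.891, and overlaps those of Mrps31 and Mrps17. These intervals make no allowance for the picking of the lowest genes. Mrps18c, homolog of bacterial S18, had a log2 ratio of -0.31, Mrps10, homolog of S10, of -0.28, and the mitochondria-specific Mrps33 of -0.27. Mrps9, which was second to Mrps21 in level per length, had 1477 and 1401 reads (-0.18).

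Mrps24 and Mrps12 had the highest ratios. Mrps24, the homolog of bacterial S3 at the entry of the mRNA channel, had 449 heterozygote and 605 mutant reads, a ratio of 1.25 (1.11 to 1.42); it lies at chr11:5603986-5607702 in the deposited coordinates. Mrps12, the homolog of bacterial S12 in the decoding centre, had 352 and 451 reads, a ratio of 1.19 (1.03 to 1.37). Their intervals overlap each other and lie above the intervals of Mrps21, Mrps31 and Mrps17. The genes were picked from both ends of the ranking, for which the intervals make no allowance. The other genes among the 6 highest had intervals that hold 1: Mrps34 (log2 ratio 0.16), Mrps6 (0.15), Mrps2 (0.12) and Mrps35 (0.02). Mrps34 overlaps the models of Eme2, Mapk8ip3 and Nme3, and Mrps6 that of Slc5a3, so reads of these neighbours may be counted in them.

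Genes of bacterial descent and mitochondria-specific genes had like medians. In the large subunit the 30 homologs had a median log2 ratio of -0.20 (27 below 0, 9 past 1.2-fold lower, 1 higher) and the 16 mitochondria-specific genes -0.19 (12 below 0, 6 lower). In the small subunit the 16 homologs had -0.19 (12 below 0, 4 lower, 1 higher) and the 10 mitochondria-specific genes -0.17 (8 below 0, 2 lower). Among 3 names that mislead, structures place Mrps18a and Mrps30 in the large subunit, and Mrps36 is now known as a component of the α-ketoglutarate dehydrogenase complex. Mrps18a had 805 and 794 reads (-0.12), Mrps30 398 and 432 (0.01) and Mrps36 726 and 661 (-0.24). With Mrps18a and Mrps30 moved, the large subunit had a median of -0.19, and without all 3 the small subunit also had -0.19.

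The 4 genes on the list of inherited cardiomyopathy had a median of -0.21. None passed 1.2-fold, but 4 genes are too few to set this count against the 15.2% lower and 16.7% higher of all genes. Mrpl3, which lies near the peptidyl transferase centre, had 589 heterozygote and 541 mutant reads (ratio 0.853, 0.758 to 0.961). Mrps14, homolog of bacterial S14, had 923 and 840 (0.846, 0.769 to 0.929). Mrps22, a mitochondria-specific protein, had 342 and 319 (0.867, 0.742 to 1.01), and for Mrpl44 the counts were 302 and 325, with an interval of 0.852 to 1.17. The intervals of Mrpl3 and Mrps14 lie below 1 and those of Mrps22 and Mrpl44 hold it.

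Mitochondrial ribosomal proteins under other names gave a mixed picture. With D10Ertd322e, an older symbol of Mrpl42, the median of 8 was -0.22, with 5 below 0, 3 past 1.2-fold lower and 1 higher; the 7 without it had -0.18. D10Ertd322e had 1296 and 1013 reads (log2 ratio -0.46), and Chchd1 (-0.43) and Ptcd3 (-0.32) were also past 1.2-fold lower. Mrp63, also known as Mrpl57 and outside the naming rule, had 325 heterozygote and 457 mutant reads, a ratio of 1.31 (1.13 to 1.51), the highest among the mitochondrial ribosomal proteins measured. Dap3, a GTP-binding protein of the small subunit, had 983 and 1066 reads (0.01), and its interval of 0.923 to 1.10 holds 1.

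Genes that act with the mitochondrial ribosome had medians closer to 0 than the ribosomal proteins. For the assembly factors this held only before the removal of a trend with GC content and length, described below. After it they stood at -0.12, against -0.08 for the 75 members, and the translation factors stood at -0.07, close to the members. Before it, 29.2% of assembly factors and 30.8% of translation factors were past 1.2-fold lower, not below the 28.0% of the members. Of all genes 15.2% were that much lower. Of 24 genes listed as assembly factors and rRNA modifiers 17 were below 0, 7 past 1.2-fold lower and 1 higher, with a median of -0.10. The list includes Bop1 (-0.003), a nucleolar factor of the cytosolic ribosome, which is counted among those below 0. The lowest was Rnmtl1, an rRNA methyltransferase (157 and 107 reads, -0.59), and the highest 1110032A13Rik, the ribosome binding factor Rbfa (149 and 230 reads, 0.48). Oxa1l, the insertase to which the ribosome docks, had the highest mean CPM of this list (-0.10). Of 13 translation factors 10 were below 0 and 4 past 1.2-fold lower (median -0.08), from the release factor Mtrf1 (-0.55) to the elongation factor Tsfm (0.22), with the mRNA-binding Lrpprc at -0.08. The list of mitochondrial tRNA synthetases held 20 genes, among them the amidotransferase subunits Qrsl1, Pet112l and 2010003O18Rik, which are not synthetases. It had a median of 0.06, with 9 below 0, 3 past 1.2-fold lower and 3 higher. Qrsl1 (-0.46) was among the lower and 2010003O18Rik (0.29) among the higher. Rars2 was lowest (-0.48), Cars2 highest (0.32) and Iars2 had the highest mean CPM (0.09).

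Lists of regulators had medians near 0 or above it. The 13 genes of mitochondrial transcription and the nucleoid had a median of -0.03 (3 past 1.2-fold lower, 2 higher), from the RNA-binding Slirp (1945 and 1410 reads, -0.57), which also had the highest mean CPM, to the polymerase subunit Polg2 (29 and 53 reads, 0.56). The 14 nuclear regulators had 0.01 (1 lower, 1 higher), with the coactivator Ppargc1a at -0.33, the nuclear receptor Esrrg at 0.39 and the cofactor Hcfc1 at 0.10. The 6 proteases of the matrix and inner membrane had 0.13, with the peptidase Clpp at 0.31, its partner Clpx at -0.13 and Lonp1 at 0.14. Under total-count scaling the medians of the translation factors and of transcription and nucleoid were above 0. Those of the nuclear regulators and proteases were below 0 after removal of that trend, as were Hcfc1 (-0.10) and Lonp1 (-0.02).

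Some larger sets lay on the same side as the mitochondrial ribosomal proteins. Their counts at 1.2-fold stand beside 15.2% lower and 16.7% higher of all genes. The 78 tested cytosolic ribosomal proteins had a median of -0.24 (76 below 0, 30 past 1.2-fold lower, 1 higher), with Rpl32 at -0.53, Rps2 at 0.27 and Rplp1, highest in mean CPM, at -0.13. The 76 tested nuclear genes of the respiratory chain had -0.21 (64 below 0, 27 lower, 4 higher), with Cox8b at -0.59, Cox6b2 at 0.61 and Atp5b, highest in mean CPM, at 0.03. The 15 mRNAs and rRNAs of mitochondrial DNA, from which the ribosomal RNA comes, had -0.39 (15 below 0, 12 lower). The 12S rRNA of the small subunit had 17530 heterozygote and 13277 mutant reads (-0.51), and the 16S rRNA of the large subunit 66851 and 54799 (-0.39). Within the list mt-Co2 was lowest (-0.52), mt-Nd6 highest (-0.20) and mt-Co1, with the highest mean CPM, was at -0.39. The share of reads from all symbols that begin with mt-, a wider set than these 15 genes, was 12.8% for the heterozygote and 10.6% for the mutant.

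**Figure D3:**
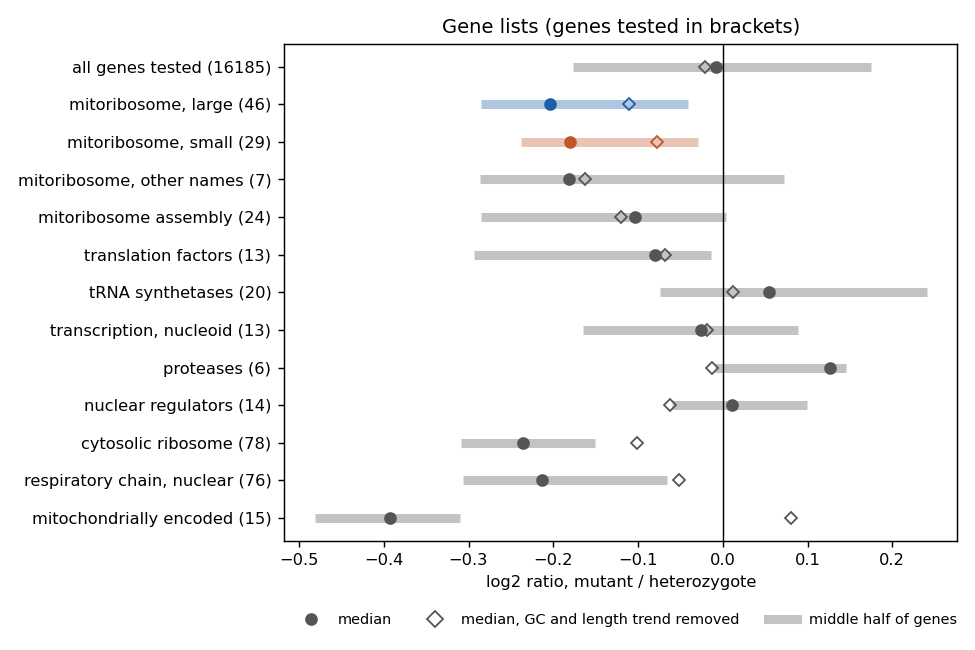
Median log2 ratio of mutant over heterozygote (x axis) of the mitochondrial ribosomal proteins and of related gene lists (y axis, genes tested in brackets); filled circles are medians, bars run from the first to the third quartile and open diamonds are medians after removal of the trend with transcript GC content and length. The 2 subunits sit at -0.20 and -0.18, beside the cytosolic ribosome (-0.24) and the nuclear respiratory chain (-0.21), and after removal at -0.11 and -0.08.

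The GC content of the transcripts moved with these ratios. Over 10861 genes averaging 5 CPM or more the Spearman correlation of the log2 ratio with GC content was 0.44, and over the 75 members, which come from the same 2 libraries, it was 0.36. The 25 members lowest in GC content (39.6% to 47.5%) had a median of -0.24, the next 25 had -0.21 and the 25 highest (52.7% to 60.6%) -0.11. All genes in the same ranges had medians of -0.11, -0.01 and 0.09. The members were thus lower than all genes of like GC content in each of these ranges, and 61 of the 75 lay below the all-gene median at their own GC content. Length was not matched here: the members' transcripts had a median of 1316 bases, against 3281 over all tested genes with a known transcript. Their median GC content was 50.9%, against 50.3%. The Spearman correlation of the log2 ratio with length was 0.17 over the 10861 genes and 0.05 over the members. After removal of a trend fitted as a quadratic function of GC content and of the logarithm of length, the median of the members went from -0.19 to -0.08, beside -0.02 over all genes, with 55 of 75 below 0. Past 1.2-fold were then 8 lower, beside 11.5% of all genes, and 4 higher, beside 12.3%. The same step moved the cytosolic ribosomal proteins to -0.10, the nuclear respiratory chain to -0.05 and the mitochondrially encoded genes, of which 86.7% had a value, to 0.08. The list of inherited cardiomyopathy went from -0.21 to -0.02. The parts of GC content and of length in these changes were not tested apart.

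Single members moved unequally under this step. Mrpl35 (-0.54 before and -0.44 after) and Mrpl47 (-0.53 and -0.45) stayed the lowest of the large subunit, and Mrps17 (-0.39 and -0.34) became the lowest of the small subunit. Mrpl33 went from -0.45 to -0.12, Mrps21 from -0.45 to -0.23, Mrps18c from -0.31 to -0.03 and Mrps33 from -0.27 to -0.02. Mrps24 (0.32 and 0.35), Mrpl10 (0.30 and 0.31), Mrps12 (0.24 and 0.27) and Mrpl23 (0.23 and 0.40) were above 0 in both forms. In all 10 of the 75 members changed sign, 8 of them from below to above 0, among them Mrps22 (0.006 after), Mrps36 (0.02), Mrpl1 (0.10) and Mrpl44 (0.05).

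**Figure D4:**
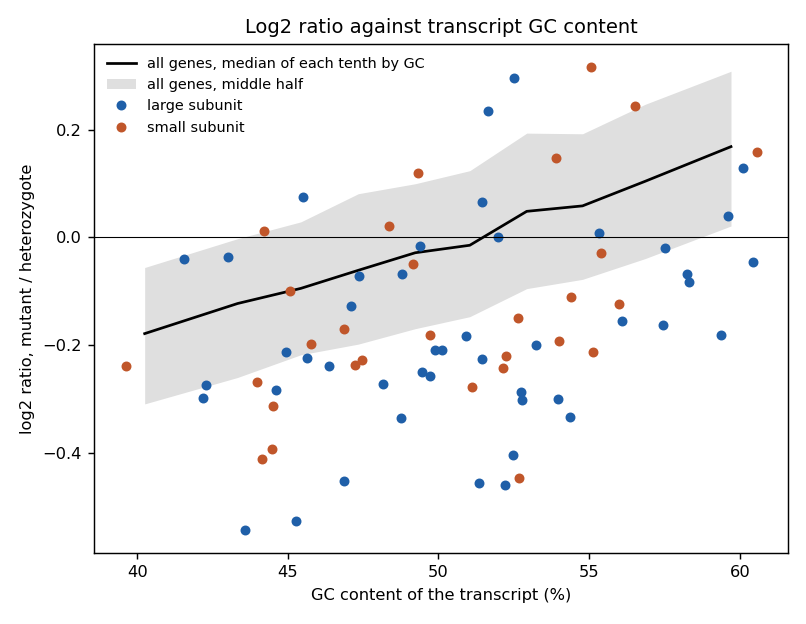
Log2 ratio of mutant over heterozygote (y axis) against the GC content of the longest transcript (x axis, percent), 1 point per mitochondrial ribosomal protein gene, with the median (line) and quartiles (band) of all genes averaging 5 CPM or more, in 10 bins by GC content. The line runs from -0.18 to 0.17, and 61 of the 75 points lie below the all-gene median at their GC content.

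Mitochondrial ribosomal protein genes often share a start region with a gene on the opposite strand. In the deposited coordinates 27 of the 75 (36.0%) have a start within 1000 bases of the start of such a neighbour, against 13.0% of 13892 tested genes named by a symbol. Members with and without such a partner had nearly the same median log2 ratio, -0.21 and -0.18. For 25 members the partner is not itself a mitochondrial ribosomal protein. These 25 partners had a median of 0.09, with 17 above 0, 5 past 1.2-fold higher and 5 lower. Of all genes 16.7% were that much higher and 15.2% lower, so both counts lie near the background. The members of these pairs had a median of -0.20, with 19 of 25 below 0. Where the partner's gene model does not overlap the member, 22 partners had 0.09 too. All genes with a head-to-head partner had a median of -0.06. The partners were slightly richer in GC (median 53.5% against 51.5%). After the trend with GC content and length was removed, the partners stood at -0.002 and their members at -0.09.

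Pairs of both kinds were present; they are named here after their values were seen. Mrpl14, homolog of bacterial L14, had 694 heterozygote and 657 mutant reads, whereas its partner Tmem63b, a membrane channel gene 234 bases away, had 726 and 1013. The interval of Tmem63b, 1.18 to 1.43, does not overlap that of Mrpl14, 0.789 to 0.980. Mrpl13 (1293 and 1011 reads) faced Mtbp (291 and 323 reads), and Mrpl40 (633 and 538) faced the histone chaperone gene Hira (459 and 522). The ratios of these 2 partners were 1.03 for Mtbp and 1.06 for Hira, with intervals that hold 1. In other pairs both genes lay on one side. Mrpl47 and Ndufb5, a subunit of respiratory complex I 288 bases away, had log2 ratios of -0.53 and -0.39. Mrpl32 and the proteasome gene Psma2 had -0.30 and -0.33, and Mrps12 and the mitochondrial seryl-tRNA synthetase gene Sars2 had 0.24 and 0.28.

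A single start region lies between genes of both subunits. Mrpl46 of the large subunit and Mrps11 of the small subunit lie head to head on chromosome 7, with starts 221 bases apart in the deposited coordinates. Mrpl46 had 360 heterozygote and 315 mutant reads (ratio 0.813, 0.697 to 0.948), and Mrps11 had 322 and 297 (0.857, 0.730 to 1.01). These counting intervals overlap. The stretch between the RefSeq starts is shown because both genes are transcribed away from it. It spans 41 bases (GRCm38.p6, chr7:78783090-78783130, plus strand) and holds none of the NRF1 and ETS letters.
Mrpl46 to Mrps11: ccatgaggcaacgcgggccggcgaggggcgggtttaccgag

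**Figure D5:**
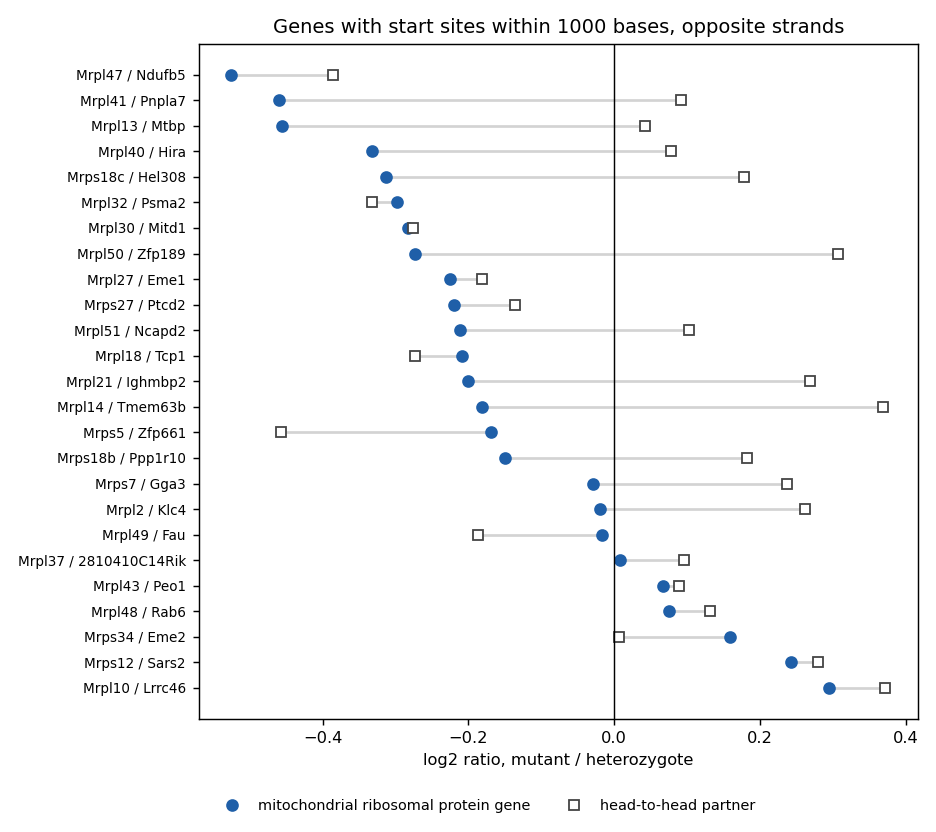
Log2 ratio of mutant over heterozygote (x axis) of 25 mitochondrial ribosomal protein genes (filled circles) and of the neighbour whose start lies within 1000 bases on the opposite strand (open squares), sorted by the member's ratio; names are member and partner. Members lie below 0 in 19 of 25 pairs and partners above 0 in 17 of 25.

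Genes with and without the promoter letters had like medians. The 12 genes with NRF1 letters had a median log2 ratio of -0.18 and the 54 without -0.21. With ETS letters it was -0.21 in 24 genes, and -0.19 in the 42 without. For YY1 the medians were -0.21 in 13 genes and -0.20 in 53.

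Overlapping models touched part of the set. Of the 75 genes 13 overlap a model of another gene and 8 have a second model of their own under another spelling, which counts many of the same reads (Mrpl13 had 1293 and 1011 reads, its second model 1286 and 1018). Mrpl41 overlaps Wdr85, and Mrpl33 overlaps Rbks and spans its own second model. How strand was used in counting is not given in the sources at hand, so reads of a gene and of an overlapping partner on the opposite strand cannot be told apart. Without the 13 genes the medians were -0.21 for the large and -0.19 for the small subunit.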

How the data were processed

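Total RNA gave 1 library per genotype, prepared as full-length transcript RNA-seq, per the labels' protocols. The deposited read count of each of 29595 gene models was used. The authors' CPM columns divide counts by the library total and were used as a check (recomputed values differed by at most 4.91e-11). The authors' fold, a ratio of heterozygote over mutant CPM, and the deposited p-value, whose test is not named, were not used. No aligner, counting program or genome build is named (not given in the sources used here). Deposited coordinates reach 197002909 on chromosome 1, past the last GRCm38 RefSeq gene (195291439), so they were not joined to RefSeq positions.

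Rows of 1 symbol were summed (185 symbols had several). TMM factors from edgeR 4.0.16 in R 4.3.3 were 0.970 (heterozygote) and 1.03 (mutant), and the pseudocount was 1 CPM. Genes with at least 1 CPM in the higher library were counted at 1.2-fold and 2-fold. With 1 library per group no test of genotype was made. The longest protein-coding GENCODE M21 transcript gave the length and GC content of a gene. Alternatives were total-count, upper-quartile and DESeq2 1.42.0 scaling, pseudocounts of 0.1 and 5 CPM, no minimum or 5 CPM, 1 row per symbol, GC and length trend removal and, chosen after seeing the data, exclusion of overlapping genes, subunits by structure and the older symbol of Mrpl42 counted among other names. The scripts were tested on simulated data.

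Members and gene lists were chosen with earlier results of these data known. Genes named are, per subunit, the 6 lowest and 6 highest ratios and the 3 highest levels per length, all stalk and inherited cardiomyopathy genes, Mrps18a, Mrps30 and Mrps36, and of other lists the lowest, highest and most abundant; further genes were named after their values were seen. Median log2 ratios of marker lists were -0.10 for cardiomyocytes, -0.13 for endothelium, 0.05 for epicardium, 0.04 for fibroblasts and mesenchyme, -0.35 for erythroid cells and -0.24 for leukocytes.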

Additional observations from a re-analysis of the deposited data

How the results depend on the processing

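No paired analysis was possible because each genotype has 1 library, and no replicate could be left out. Both subunits had medians below 0 under every alternative run. Under total-count scaling, which raised the median of all genes by 0.08, the median log2 ratio was -0.12 for the large and -0.094 for the small subunit, 9 genes were past 1.2-fold lower and 4 higher, and over all genes 9.56% were lower and 23.9% higher (15.2% and 16.7% with TMM). The distance of the members' median to that of all genes was -0.18 with each of the 4 scalings. After removal of the GC and length trend the medians were -0.11 and -0.077, with 8 genes lower and 4 higher, and the distance to all genes was -0.06; the cause of the trend was not tested. A pseudocount of 5 CPM gave -0.18 for the large subunit. The mutant to heterozygote ratio of shares of reads was 0.941 for the large and 0.947 for the small subunit, and 0.918 and 0.923 when mitochondrially encoded genes were left out of the total. Among the gene lists beside the markers, medians changed sign for translation factors (0.0070) and transcription and nucleoid (0.059) under total-count scaling, and for nuclear regulators (-0.062), proteases (-0.012) and mitochondrially encoded genes (0.081) after trend removal, as did those of epicardial (-0.006) and fibroblast (-0.07) markers and of the head-to-head partners (-0.002). Under total-count scaling 12 of the 75 members changed sign, all from below to above 0, among them Mrpl1, Mrpl44, Mrpl54 and Mrps26, and 10 did after trend removal. No member was 2-fold apart under any alternative. Counting error alone leaves ratios of 30 members with intervals that hold 1.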
